A study of Mus musculus with 46 samples.

Results

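Chemokines and their receptors were followed here in the cecum and liver of mice on 4 diets. Members were taken by name: every array probe whose transcript accession maps to a mouse gene called Ccl, Cxcl, Cx3cl or Xcl (ligands) or Ccr, Cxcr, Cx3cr or Xcr (receptors) followed by a number. Of 20887 genes named on the array, 52 were members, 34 ligands and 18 receptors, read by 63 of 55681 probes. A gene with several probes was read by the probe with the highest mean signal in that tissue. The RefSeq gene table holds 58 symbols of this form, and Ccl21a, Ccl21b, Ccl21c, Ccl21d, Ccl27b and Cxcl11 had no matching probe.

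All mice were male C57Bl/6, an inbred strain, and ate their diet from 12 to 20 weeks of age. HFD carried 45% of its energy as fat and LFD 10%. In HFD + inulin, the fructan inulin, a fiber fermented by gut bacteria, made up 10% of the diet in place of 5% corn starch and 5% cellulose. In HFD + inul PB that share was 5% inulin propionate ester and 5% inulin butyrate ester, forms that release the fatty acid when fermented. Cecum and liver RNA was measured on 1-colour Agilent arrays, each sample on an array of its own. Liver had 6 arrays of each diet. Cecum had 6 of HFD and of HFD + inulin and 5 of LFD and of HFD + inul PB. Levels below are log2 of the background-subtracted spot signal after normalisation within a tissue, and differences are log2 differences of diet means.

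Chemokines are small secreted proteins that steer leukocytes through G protein-coupled receptors on the cell surface. Inflammatory chemokines are induced by cytokines and call monocytes, neutrophils and effector T cells into tissue, while homeostatic chemokines place lymphocytes in lymph nodes, Peyer's patches and the follicles of the gut wall. In the intestine CCL25 and its receptor CCR9 are known for homing to the small bowel, and CCL28 and CCR10 for homing of plasma cells to the large bowel.

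In cecum, 25 of the 52 members were well above background on all 22 arrays, 16 on some and 11 on none. The 11 were Ccl1, Ccl20, Ccl22, Ccr4, Cxcl17, Cxcl2, Cxcl3, Cxcl5, Cxcr1, Cxcr2 and Xcr1, among them both receptors for the neutrophil attractants. In liver 20 were above background on all 24 arrays, 19 on some and 13 on none. All 52 were kept in the counts below, although a probe never above background cannot show a fall.

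The tissue labels matched the tissue markers. The mean of 6 intestinal epithelial genes was 16.04 to 16.41 in cecum and 6.84 to 7.41 in liver, where Krt20 and Vil1 were never above background. The mean of 5 hepatocyte genes was 16.74 to 17.58 in liver, and Alb was not above background on any cecum array. Each array had 46.4% to 55.9% of its spots well above background. The arrays of a tissue lay on 3 slides that each held all 4 diets. On cecum slide 2, HFD + inul PB and LFD each had replicate 3 as their only array. A difference of either diet on that slide therefore rests on that array.

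One cecum array stood apart through a member of the list. Ccl25, a chemokine made by epithelium of the small intestine, read 16.1 on HFD replicate 5 and 9.98 to 12.34, with a median of 10.55, on the other 21 cecum arrays. Of 11 further genes typical of small intestine, a list made after this value was seen, 10 were also higher on HFD replicate 5 than on any other cecum array. The sucrase gene Sis read 14.81 there against a median of 5.17, and the ileal bile acid carrier Fabp6 read 18.77 against 10.39. Sis was above 9 on 4 other arrays, HFD + inulin replicate 1 (9.41), HFD + inul PB replicate 5 (11.14), LFD replicate 2 (11) and LFD replicate 3 (9.07), and those 5 arrays held the 5 highest Ccl25 levels. Counts below are therefore also given without HFD replicate 5 and without all 5 arrays, as alternatives added after seeing the data.

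**Figure D1:**
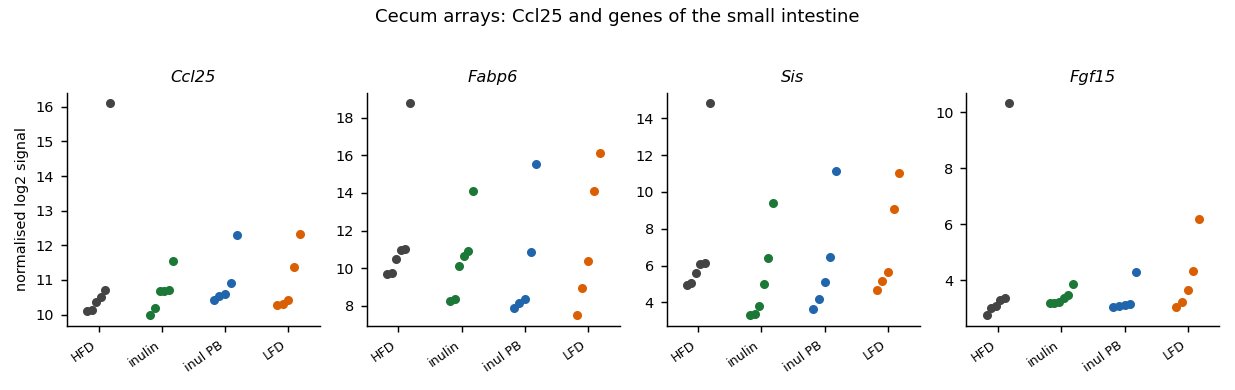
Normalised log2 signal (y axis) of Ccl25 and 3 genes of the small intestine on every cecum array, 1 point an array, by diet (x axis). HFD replicate 5 is the top point in each panel, at 16.1 for Ccl25 and 14.81 for Sis, and the next highest points fall on few arrays of the other diets.

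The cecum comparisons asked how the family differed between HFD and each other diet. A probe was called when its fold difference was over 1.5 at an unadjusted P under 0.01 in the limma fit, the criteria of the study's methods. A P given without a further word is that unadjusted P of limma. On HFD + inul PB 11 members were called lower than on HFD and none higher, against 2.15% of all probes called lower, 2.54% called higher and 4.69% either way. They were the ligands Ccl5, Ccl9, Cxcl9, Cxcl10 and Cxcl12 and the receptors Cxcr3, Cxcr4, Cxcr5, Cxcr6, Ccr6 and Ccr7. The median difference over the 52 members was -0.38, and over all probes it was 0. After Benjamini-Hochberg adjustment over all probes, 10 of the 11 passed at 0.05, all but Cxcl12, against 3.51% of all probes lower.

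Fewer members were called on the other diets. On HFD + inulin Ccl5, Ccl9, Ccr9, Cxcr3 and Cxcr5 were lower than on HFD, 5 members, with 1.3% of all probes lower, 1.17% higher and 2.47% either way. The median was -0.10, against 0.01 over all probes. After adjustment Ccl9 (lower) and Cx3cl1 (higher, by less than the fold threshold) passed, against 1.58% of all probes (0.842% higher and 0.735% lower). On LFD Ccr6, Ccr7, Ccr9, Cxcr3 and Cxcr5, all of them receptors, were lower than on HFD, with 0.282% of all probes lower, 0.357% higher and 0.639% either way, and the median was -0.24. After adjustment 0 members and 0 of all probes passed in limma for LFD, while 8 members, all lower, and 5.24% of all probes had an unadjusted P under 0.05. These 3 comparisons share the HFD arrays, so their calls are not independent of each other.

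The counts were smaller without the arrays that carried small-intestine genes, which also left fewer arrays in the fit. Without HFD replicate 5, 10 members were called on HFD + inul PB (Cxcl12 was lost), of which 6 passed after adjustment, 2 on HFD + inulin (Ccl9 and Cxcr5) and 5 on LFD (Ccr9 was lost and Xcl1 called). Without all 5 arrays 5 were called on HFD + inul PB (Ccl5, Ccl9, Cxcr3, Cxcr5 and Cxcr6), of which Ccl9 and Cxcr5 passed after adjustment. On HFD + inulin Ccl9 and Cxcr5 remained, 2 in all, and on LFD 3 were called (Ccr7, Cxcr5 and Xcl1). Some differences whose call was lost were about as large as before, Ccr6 at -1.03 and Ccr7 at -1.16 on HFD + inul PB, and Ccr6 at -1.11 and Cxcr3 at -0.77 on LFD.

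**Figure D2:**
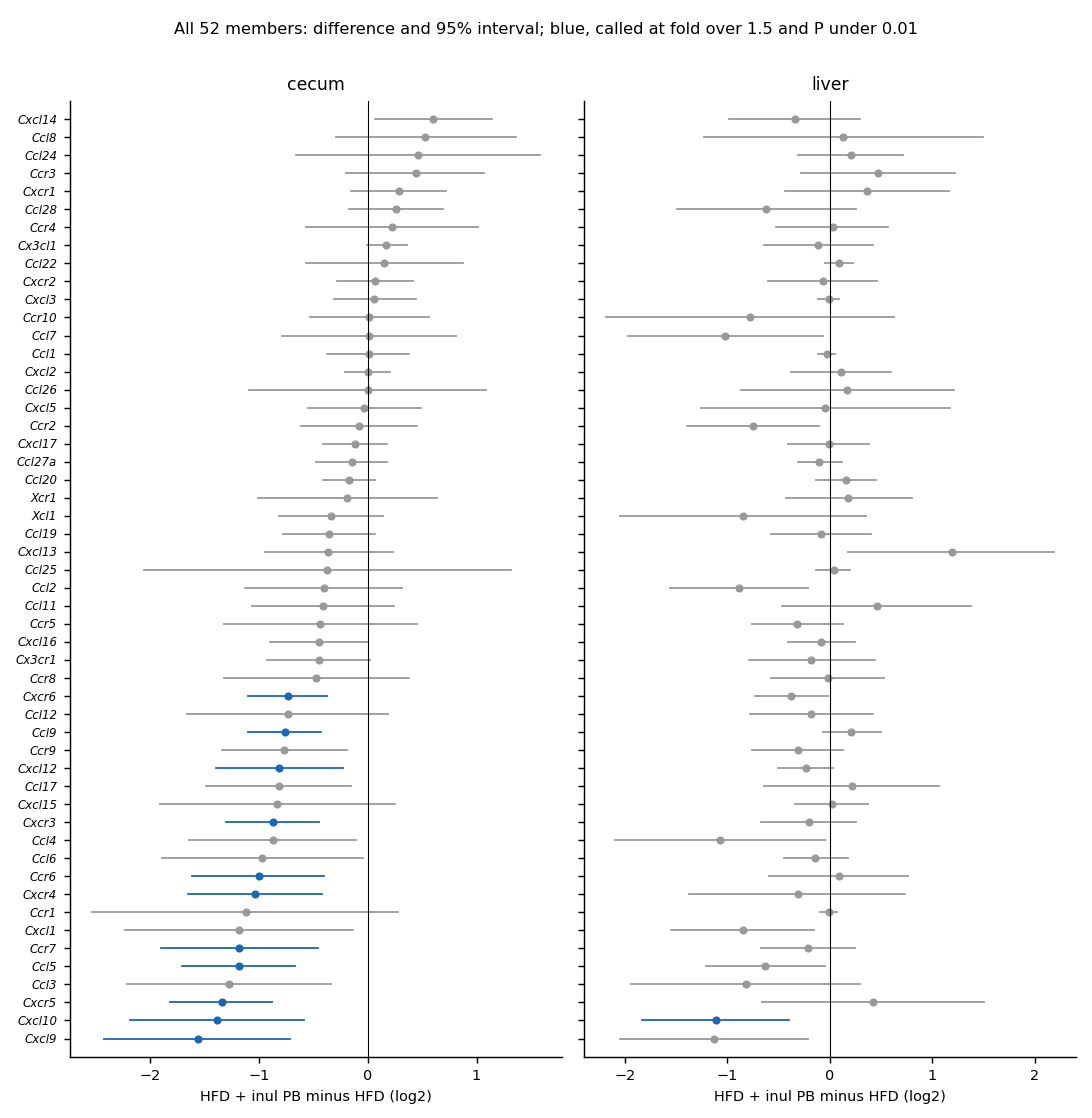
Difference between HFD + inul PB and HFD (x axis, log2, point with 95% interval) for all 52 members (y axis, ordered by the cecum difference) in cecum (left) and liver (right). In cecum the 11 called members, in blue, all lie below 0, from Cxcr6 at -0.73 to Cxcl9 at -1.56, while in liver Cxcl10 alone is called.

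The 2 interferon-induced ligands measured, Cxcl9 and Cxcl10, which attract activated T cells through Cxcr3, were the lowest of the family on HFD + inul PB relative to HFD. Cxcl9 was 8.12 to 9.53 on HFD (median 9.06) and read 7.33, 7.84, 8.02, 7.38 and 6.52 on HFD + inul PB. Every HFD + inul PB array lay below every HFD array. The difference was -1.56 ± 0.41 (SE), 2.96-fold, with a limma adjusted P of 0.0249. On HFD + inulin Cxcl9 spread from 7.69 to 10.27 and differed by -0.18 ± 0.39 (adjusted P = 0.868), and on LFD it differed by -0.55 ± 0.41 (adjusted P = 0.839).

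Cxcl10 was 8.65 to 10.29 on HFD (median 10.09) and read 8.61, 8.89, 9.13, 8.17 and 7.49 on HFD + inul PB. The groups overlapped through 1 low HFD array, replicate 4. The difference was -1.38 ± 0.38, 2.61-fold (adjusted P = 0.0328), against -0.35 ± 0.37 on HFD + inulin (adjusted P = 0.69) and -0.19 ± 0.38 on LFD (adjusted P = 0.953). Both genes were lower on all 3 slides, by 0.59 log2 or more for Cxcl9. For Cxcl10 the arrays of slide 2 read 10.29 and 8.65 on HFD and 9.13 on HFD + inul PB. Neither gene was called without the 5 arrays that carried small-intestine genes, where Cxcl9 differed by -1.23 and Cxcl10 by -1.12.

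The bases before these genes are shown because the 2 ligands moved together, beside those of Ccl9, which was called on both fiber diets. RefSeq (GRCm38.p6) places the 250 bases before the start of Cxcl9 at chr5:92328080-92328329, of Cxcl10 at chr5:92348890-92349139 and of Ccl9 at chr11:83578637-83578886, all on the minus strand. Capitals mark matches, on either strand, to an interferon-stimulated element (ISRE, GAAA, any 2 bases and GAAA again) or an NF-kappaB site.
Cxcl9: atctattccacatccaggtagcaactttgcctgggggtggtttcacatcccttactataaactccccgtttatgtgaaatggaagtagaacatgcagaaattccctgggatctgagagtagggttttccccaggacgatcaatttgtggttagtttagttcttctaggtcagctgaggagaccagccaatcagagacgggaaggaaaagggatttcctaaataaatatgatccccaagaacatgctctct
Cxcl10: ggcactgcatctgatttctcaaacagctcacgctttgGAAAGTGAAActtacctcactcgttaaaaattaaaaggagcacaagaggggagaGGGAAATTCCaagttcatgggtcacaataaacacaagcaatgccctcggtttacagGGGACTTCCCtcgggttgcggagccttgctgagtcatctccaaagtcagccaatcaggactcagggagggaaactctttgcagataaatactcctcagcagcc
Ccl9: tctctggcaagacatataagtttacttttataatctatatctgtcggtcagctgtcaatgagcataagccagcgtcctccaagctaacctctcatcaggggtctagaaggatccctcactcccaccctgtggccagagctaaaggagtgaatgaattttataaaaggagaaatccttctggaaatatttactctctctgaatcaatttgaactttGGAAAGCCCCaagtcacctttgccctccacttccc
Cxcl10 held an ISRE match starting 213 bases before the start and NF-kappaB matches at 159 and 103. Ccl9 held an NF-kappaB match at 35. The letters of neither motif were in the Cxcl9 window. Of 32841 mouse promoters of this length, 2.98% held ISRE and 3.9% the NF-kappaB letters. GAS (TTCNNNGAA, N any base) was also searched, had no match in the windows shown, and was held by 7.02%. Windows of other members were searched and are not shown. Among them Cxcl14 held GAS and ISRE matches and Ccr6 GAS matches. Cxcr3, also called on both fiber diets, held no match to any of the motifs. Neither did Cxcr4, Cxcr6, Cxcl12, Cxcl13, Cx3cl1 or Ccr9. Ccl5, Ccr7 and Cxcr5 were not in the promoter table.

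Among the CC ligands that attract monocytes, T cells and eosinophils, 2 of 15, Ccl5 and Ccl9, were called lower on both fiber diets. Ccl5 (RANTES), a product of T cells and other lymphocytes, was 12.57 to 14.07 on HFD (median 13.01). It read 11.97, 12.19, 12.17, 11.61 and 11.9 on HFD + inul PB, all below the lowest HFD array. The difference was -1.18 ± 0.25, 2.27-fold (adjusted P = 0.00651), and it was called whichever array was left out and under every other setting tried.

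On HFD + inulin Ccl5 was 11.88 to 13.44 (median 12.25), overlapping HFD, with a difference of -0.76 ± 0.23 (adjusted P = 0.11). On LFD it read 12.65, 12.37, 12.49, 12.52 and 12.48, the narrowest group, with a difference of -0.65 ± 0.25 (adjusted P = 0.839) that was not called. The HFD + inulin call was lost on leaving out each of 5 arrays in turn, and without HFD replicate 5 the difference was -0.57.

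Ccl9, a myeloid chemokine that acts through Ccr1, was 10.46 to 11.32 on HFD (median 10.92). It was 9.85 to 10.81 (median 10.16) on HFD + inulin and read 10.15, 10.27, 9.97, 10.04 and 10.36 on HFD + inul PB. HFD + inul PB did not overlap HFD, and of HFD + inulin 1 array reached into it. HFD + inul PB differed by -0.76 ± 0.16 (adjusted P = 0.00695) and HFD + inulin by -0.70 ± 0.15 (adjusted P = 0.026). LFD arrays, at 10.34 to 10.99, overlapped HFD (difference -0.22 ± 0.16, adjusted P = 0.839). Both Ccl9 calls held whichever array was left out and under every other setting, with a range of -0.91 to -0.64 on HFD + inul PB and -0.77 to -0.59 on HFD + inulin.

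**Figure D3:**
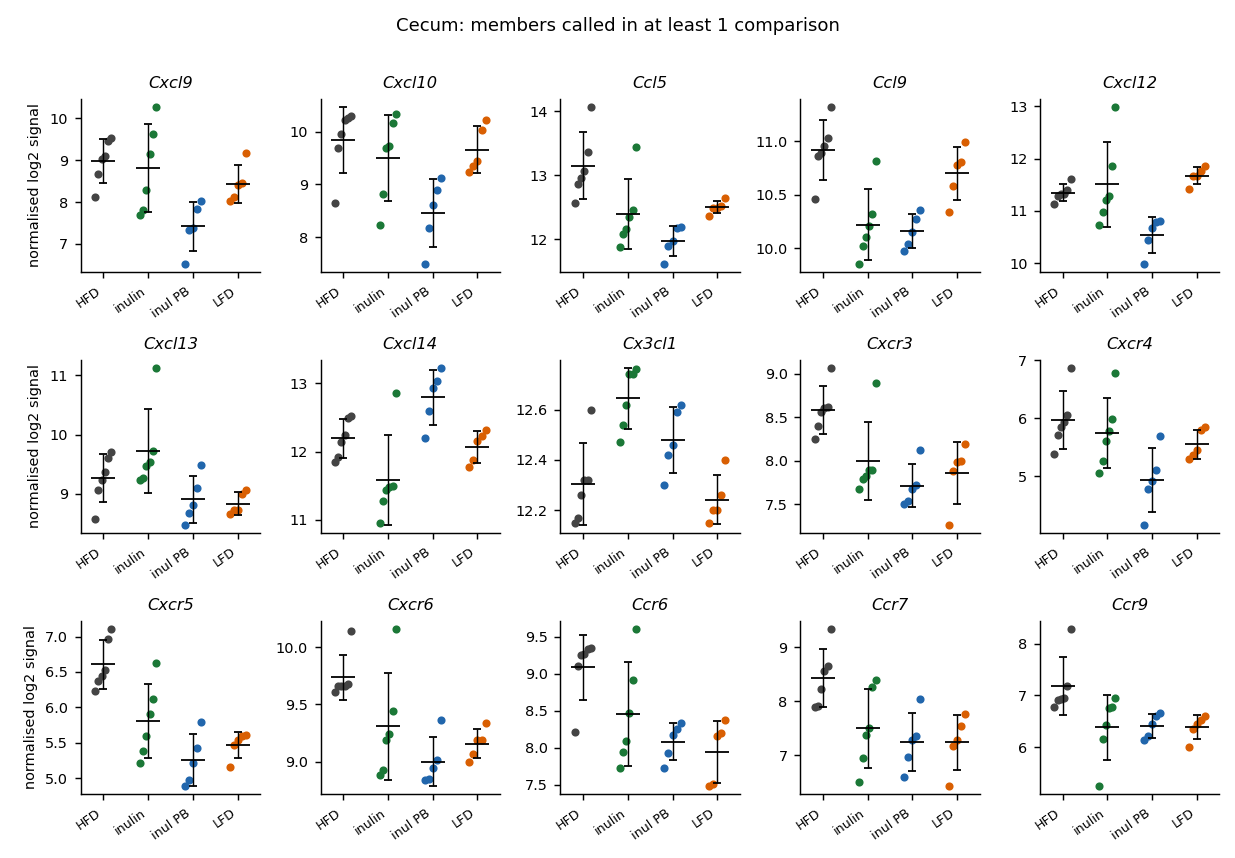
Normalised log2 signal (y axis) of the 15 members called, or past adjustment, in at least 1 cecum comparison, by diet (x axis). Points are arrays, the bar is the mean and the whiskers are 1 SD. Cxcl9, Ccl5, Ccl9, Cxcr5 and Cxcr6 of HFD + inul PB lie wholly below HFD, whereas Cxcl14 is highest on HFD + inul PB (mean 12.80).

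Of the 12 homeostatic and epithelial ligands, Cxcl12 was called lower on HFD + inul PB than on HFD. CXCL12, a stromal chemokine, holds lymphocytes and progenitors in place through CXCR4. It was 11.13 to 11.61 on HFD and read 10.68, 10.45, 10.81, 10.78 and 9.98 on HFD + inul PB. The groups did not overlap and differed by -0.81 ± 0.28 (P = 0.00857, exact permutation P = 0.00216, adjusted P = 0.0855). The call was lost on leaving out each of 12 arrays in turn (-0.82 without HFD replicate 5), and a second probe, for another transcript, differed by -0.68 (adjusted P = 0.192) and was not called.

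Cxcl14, an epithelial chemokine, was the member called higher between the fiber diets. It was 11.85 to 12.53 on HFD (median 12.19), 10.95 to 12.86 on HFD + inulin (median 11.46), and 13.23, 12.93, 12.6, 13.03 and 12.2 on HFD + inul PB. On HFD + inulin 1 array, replicate 5, lay far above the rest of its group. Against HFD neither diet was called (-0.61 ± 0.24, adjusted P = 0.238, and 0.60 ± 0.26, adjusted P = 0.181). HFD + inul PB was above HFD + inulin by 1.22 ± 0.26, 2.33-fold (P = 0.000128, exact permutation P = 0.0108, adjusted P = 0.183), on all 3 slides, whichever array was left out and under every other setting.

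The epithelial ligand Cx3cl1 (fractalkine) rose on HFD + inulin after adjustment, although by only 1.27-fold. It was 12.15 to 12.60 on HFD and 12.47 to 12.76 on HFD + inulin, overlapping, a difference of 0.34 ± 0.08 (adjusted P = 0.0412). On HFD + inul PB it was 12.30 to 12.62, a difference of 0.17 ± 0.09 (adjusted P = 0.27). The mean of the fiber diets was above LFD by 0.32 ± 0.08 (adjusted P = 0.0495), the only member past adjustment there (1.12% of all probes, 0.478% higher), and no member was called by fold and P (1.49%). Both Cx3cl1 calls were lost on leaving out each of 13 and 17 arrays in turn, with ranges of 0.31 to 0.40 and 0.29 to 0.36.

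Its receptor Cx3cr1, which marks intestinal macrophages, was read by 3 probes that differed in their call. The brightest was lower on HFD + inul PB by 0.45 (adjusted P = 0.279) and another by 0.46 (adjusted P = 0.227), neither of them called. The remaining probe, above background on 21 of 22 arrays, had a difference of -1.15 (adjusted P = 0.0169).

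Direct comparison of the fiber diets called 4 members, 7.69% of the family, with 0.803% of all probes called (0.467% higher and 0.336% lower). Besides Cxcl14, Cxcl9 was lower on HFD + inul PB than on HFD + inulin by 1.39 ± 0.41 (P = 0.00306, exact permutation P = 0.0346), Cxcl12 by 0.97 ± 0.28 (P = 0.00229, exact permutation P = 0.0173) and Cxcl13 by 0.83 ± 0.28 (P = 0.00782, exact permutation P = 0.026). Groups overlapped for all 4, and none passed after adjustment in limma (0.0216% of all probes did, 0.0144% higher and 0.00718% lower), while 9 members and 6.36% of all probes had an unadjusted P under 0.05. On slide 2 alone, where replicate 3 was the only HFD + inul PB array, Cxcl9 differed by 0.27 and Cxcl13 by 0.12, in the opposite direction. Without HFD + inul PB replicate 5, Cxcl9 differed by -1.16 and was not called. Without HFD + inulin replicate 5, Cxcl13 differed by -0.55 and was not called, and without the 5 arrays with small-intestine genes only Cxcl14 was called.

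Receptors made up the larger part of the calls. Of 18 receptors, 6 were lower on HFD + inul PB, and all 6 passed after adjustment. They fall into receptors of effector T cells (Cxcr3 and Cxcr6), receptors of cells of lymphoid tissue (Cxcr5, Ccr6 and Ccr7) and the widely expressed Cxcr4.

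Cxcr5, which draws B cells and follicular helper T cells toward CXCL13, had the lowest adjusted P of the family. It was 6.23 to 7.11 on HFD (median 6.48) and read 5.22, 4.97, 4.89, 5.43 and 5.79 on HFD + inul PB and 5.47, 5.61, 5.54, 5.16 and 5.59 on LFD. Neither of these diets overlapped HFD, while HFD + inulin, at 5.21 to 6.62, did. Differences were -1.34 ± 0.22 on HFD + inul PB (2.54-fold, adjusted P = 0.00155), -1.13 ± 0.22 on LFD (2.19-fold, P = 6.88e-05, exact permutation P = 0.00216) and -0.80 ± 0.21 on HFD + inulin (P = 0.00135, exact permutation P = 0.0152). All 3 were called whichever array was left out and without the 5 arrays above. The Cxcr5 probe was dim, above background on 20 of 22 arrays, and with normexp background correction, which compresses dim probes, the 3 differences were -0.57, -0.51 and -0.36 and not past 1.5-fold. The HFD + inulin call was also lost without background correction and with the authors' values (-0.42 in both) and in a fit of both diets that took the slide and the array's place on it as blocks (-0.80).

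Ccr6, a receptor of B cells and type 17 T cells in gut lymphoid tissue, was 8.21 to 9.35 on HFD (median 9.26). It read 8.17, 7.72, 8.25, 7.93 and 8.33 on HFD + inul PB and 8.2, 7.51, 8.37, 7.48 and 8.16 on LFD. Both overlapped HFD through 1 array, HFD replicate 2 at 8.21. The differences were -1 ± 0.29 (adjusted P = 0.0399) and -1.14 ± 0.29 (P = 0.00081, exact permutation P = 0.00649), and both were called whichever array was left out. Its ligand Ccl20 was not above background on any cecum array (differences -0.17 to -0.16).

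Ccr7, which guides naive lymphocytes and dendritic cells toward CCL19 and CCL21, was 7.90 to 9.34 on HFD (median 8.38). On HFD + inul PB it read 6.59, 6.97, 8.04, 7.36 and 7.29, a difference of -1.18 ± 0.35 (adjusted P = 0.044), and on LFD 7.54, 7.76, 7.17, 6.43 and 7.29, a difference of -1.19 ± 0.35 (P = 0.00262, exact permutation P = 0.00216). LFD did not overlap HFD and HFD + inul PB did. On slide 2, where replicate 3 was the only HFD + inul PB array, the HFD + inul PB difference was -0.02. It was not called without HFD + inul PB replicate 1 (-1.01), nor was the LFD one without LFD replicate 4 (-0.99).

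The receptors of effector T cells had smaller differences. Cxcr3 was 8.25 to 9.07 on HFD and read 8.12, 7.68, 7.72, 7.54 and 7.5 on HFD + inul PB, with no overlap. The differences were -0.87 ± 0.20 on HFD + inul PB (adjusted P = 0.0129), -0.72 ± 0.20 on LFD (P = 0.00204, exact permutation P = 0.00433, no overlap) and -0.59 ± 0.19 on HFD + inulin (P = 0.00651, exact permutation P = 0.0216, overlapping). The HFD + inulin value lay at the fold threshold and was lost on leaving out each of 9 arrays in turn, among them HFD replicate 1 (-0.49). The LFD call was lost without LFD replicate 4 (-0.57).

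Cxcr6, on resident T cells and the receptor of CXCL16, was 9.61 to 10.14 on HFD and read 8.85, 9.01, 9.36, 8.94 and 8.84 on HFD + inul PB, with no overlap (difference -0.73 ± 0.17, adjusted P = 0.0143). A second Cxcr6 probe was also called there (-0.65). On LFD the arrays, at 9.0 to 9.34, did not overlap HFD either, but the difference of -0.58 ± 0.17 (adjusted P = 0.839) was 1.49-fold and so was not called.

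Cxcr4 and Ccr9 were less settled. Cxcr4 was 5.38 to 6.87 on HFD and 4.16 to 5.69 on HFD + inul PB, a difference of -1.03 ± 0.30 (adjusted P = 0.0384). It was 0.03 on slide 2, where replicate 3 was the only HFD + inul PB array. It was -0.84 and not called without HFD + inul PB replicate 5, and -0.33 with normexp. Ccr9, the receptor of CCL25, was 6.78 to 8.29 on HFD, with the highest level on HFD replicate 5. Its differences were -0.79 ± 0.26 on HFD + inulin (P = 0.00668, exact permutation P = 0.0152), -0.79 ± 0.28 on LFD (P = 0.00963, exact permutation P = 0.00433), while HFD + inul PB differed by -0.77 ± 0.28 (adjusted P = 0.103, not called). Without HFD replicate 5 the first 2 were both -0.57 and neither was called.

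The homing pair of the large bowel, Ccl28 and Ccr10, was not called on any diet. Ccl28 was 9.26 to 10.26 on HFD, with differences of 0.33 on HFD + inulin (95% interval -0.09 to 0.74), 0.26 on HFD + inul PB (-0.17 to 0.69) and -0.14 on LFD (-0.57 to 0.29). Ccr10 was 5.82 to 7.37 on HFD and its intervals likewise spanned 0. For Ccl25, with HFD replicate 5 included, the 95% intervals were -2.29 to 0.92, -2.05 to 1.32 and -2.06 to 1.31 on HFD + inulin, HFD + inul PB and LFD.

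Cells that carry these receptors were gauged through marker lists, since in whole tissue fewer cells of a type and less RNA per cell cannot be told apart. The mean of 8 B cell genes was 5.54 to 6.72 on HFD, 5.13 to 5.91 on LFD, 5.32 to 6.39 on HFD + inulin and 5.48 to 5.98 on HFD + inul PB. Its difference from HFD was -0.61 on HFD + inul PB, -0.46 on HFD + inulin and -0.70 on LFD (exact permutation P = 0.039, 0.0952 and 0.0281). Ms4a1 was called lower on LFD (-1.39, adjusted P = 0.839), while Blk was not above background on any cecum array. The mean of 9 T cell genes differed by -0.48 on HFD + inul PB (exact permutation P = 0.013) and -0.49 on LFD (exact permutation P = 0.0108). The mean of 5 dendritic cell genes differed by -0.44 on HFD + inul PB (exact permutation P = 0.00649), where all 5 were below 0 and Itgax was called, and by -0.37 on LFD (exact permutation P = 0.0216). The mean of 5 endothelial and lymphatic genes differed by -0.41 on HFD + inul PB (exact permutation P = 0.0411). No list difference passed after adjustment over the 60 tests in cecum, where the lowest adjusted P was 0.195.

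Adipocyte genes also moved with diet in the cecum. The mean of 6 such genes was 9.14 to 12.76 on HFD, 4.64 to 12.09 on LFD, 5.17 to 11.68 on HFD + inulin and 4.84 to 9.51 on HFD + inul PB. The difference of HFD + inul PB was -4.19 (exact permutation P = 0.00433, adjusted P = 0.195). The part of the B cell, T cell, dendritic cell, endothelial and adipocyte lists in the chemokine differences was not tested.

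The receptors Cxcr5, Ccr6 and Ccr7 followed the B cell genes from array to array, and their relation to the other marker lists was not tested. Over the 22 cecum arrays, Ccr6 correlated with the B cell mean at r = 0.88 (rho 0.79), Cxcr5 at 0.82 (0.76) and Ccr7 at 0.71 (0.61). Permutation P of r, adjusted over the 6 relations computed, were 3e-05, 3e-05 and 4e-04. For the ligands no relation was shown: r was 0.28 for Cxcl13 (adjusted P = 0.315) and 0.21 for Ccl19 (0.434). With 22 arrays these values do not settle whether a weaker relation exists. For Ccl20 r was -0.03 (0.899), but this probe was not above background on any cecum array and could not show a relation.

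The relation held without the 2 arrays farthest from the median B cell mean (r = 0.86, 0.78 and 0.64 for Ccr6, Cxcr5 and Ccr7). With the diet means removed r was 0.80, 0.74 and 0.51, with adjusted permutation P of 0.00018, 0.00036 and 0.0302. Within the 3 slides r was 0.80 to 0.95 for Ccr6, 0.79 to 0.86 for Cxcr5 and 0.50 to 0.92 for Ccr7. The levels compared come from the same arrays and share their normalisation. Scaled to the 75th percentile, r for Ccr7 with the diet means removed was 0.47 (adjusted P = 0.0546).

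**Figure D4:**
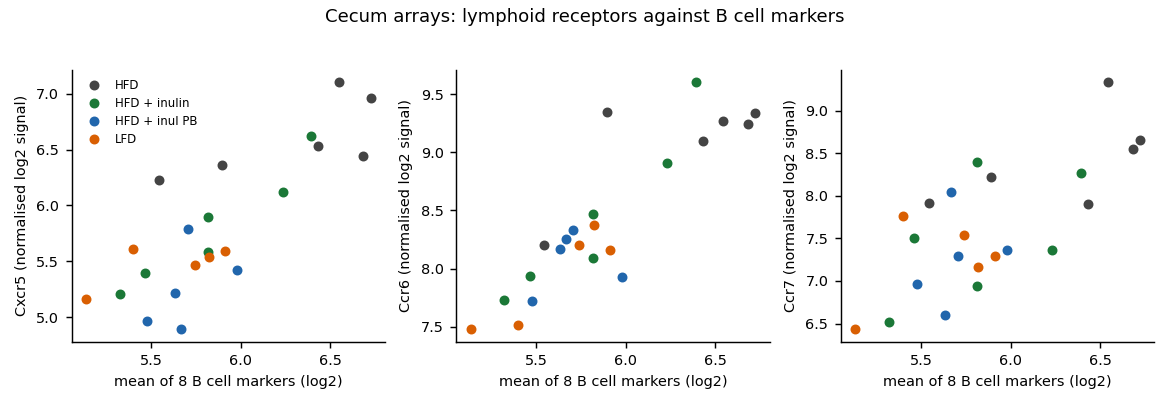
Normalised log2 signal of Cxcr5, Ccr6 and Ccr7 (y axes) against the mean of 8 B cell marker genes (x axis, log2) on the 22 cecum arrays, 1 point an array, coloured by diet. The receptors rise with the marker mean (r = 0.82, 0.88 and 0.71), and most HFD arrays lie toward the upper right of each panel. HFD replicate 2 has a low marker mean (5.542), and HFD + inulin replicates 4 and 5 (6.233 and 6.391) have marker means among those of HFD.

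Genes around the family were read from lists of inducers, signalling proteins and atypical receptors. Of 18 inducers of chemokine genes, 3 were called lower and 1 higher in cecum on HFD + inul PB, where 2.15% and 2.54% of all probes were. Ltb, the lymphotoxin subunit that organises lymphoid follicles, was lower on all 3 diets, by 1.04 ± 0.18 on HFD + inul PB (adjusted P = 0.00218), 0.79 ± 0.17 on HFD + inulin (adjusted P = 0.0266) and 0.95 ± 0.18 on LFD (adjusted P = 0.599). Ifng, the cytokine that induces Cxcl9 and Cxcl10, was lower on HFD + inul PB by 1.39 ± 0.42 (adjusted P = 0.0501) and was above background on 16 of 22 arrays. The third, Il17a, was never above background.

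Irf7, an interferon-regulated transcription factor, was higher on HFD + inul PB by 0.97 ± 0.25 (adjusted P = 0.0225), opposite to Cxcl9 and Cxcl10. Tnf was not called there (0.06 ± 0.31, adjusted P = 0.962). Of 18 signalling genes and 8 atypical receptors and relatives, 0 were called by fold and P on either fiber diet against HFD. The inhibitory G protein subunit Gnai2, through which these receptors signal, passed after adjustment at small size, 0.27 ± 0.07 on HFD + inul PB (adjusted P = 0.028) and 0.34 ± 0.07 on HFD + inulin (adjusted P = 0.0161).

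In liver the same comparisons called 1 member on HFD + inulin (0.399% of all probes called, 0.18% higher), 1 on HFD + inul PB (0.289%, 0.131% lower) and 2 on LFD (0.717%, 0.424% higher and 0.293% lower). None passed after adjustment in limma, although 5, 10 and 5 members had an unadjusted P under 0.05, as had 3.79%, 3.13% and 6.77% of all probes. On LFD 0.0287% of all probes passed, 0.00718% higher and 0.0216% lower, and on either fiber diet none did. No member was called between the fiber diets (0.198% of all probes called, 0.138% higher), and 1 had an unadjusted P under 0.05 (2.29% of all probes).

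Cxcl13, the B cell attractant of lymphoid follicles, had the largest difference in liver. It was 3.82 to 7.32 on HFD (median 5.48, above background on 4 of 6 arrays), 6.57 to 7.69 on HFD + inulin, 5.24 to 7.69 on HFD + inul PB and 6.64 to 8.75 on LFD. Except for 1 HFD array, HFD lay below HFD + inulin and LFD. The difference was 2.34 ± 0.49 on LFD (5.05-fold, P = 8.95e-05, exact permutation P = 0.00433, adjusted P = 0.121), 1.69 ± 0.49 on HFD + inulin (3.22-fold, P = 0.00221, exact permutation P = 0.0108), while HFD + inul PB differed by 1.19 ± 0.49 (adjusted P = 1, not called). Both calls held whichever array was left out and under every other setting, but with settings that compress dim probes the values fell to 1.21 and 0.75.

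Cxcl10 was lower in liver on HFD + inul PB, as in cecum. It was 9.05 to 11.11 on HFD (median 9.46) and 7.89 to 9.01 on HFD + inul PB (median 8.62). The groups did not overlap, and the difference was -1.11 ± 0.34, 2.17-fold (P = 0.0038, exact permutation P = 0.00216, adjusted P = 1). It was not called without HFD replicate 3, the highest array (-0.83), or HFD + inul PB replicate 4 (-0.98). Cxcl9 differed there by -1.13 ± 0.44 (adjusted P = 1) and was not called. On HFD + inulin, Cxcl10 and Cxcl9 were also below HFD in liver, and neither was called. In the model of both tissues described below, their liver differences on HFD + inulin were -0.76 and -0.9. The cecum differences in that model were -0.37 and -0.2. Between the fiber diets, liver Cxcl9 on HFD + inul PB differed from HFD + inulin by -0.22.

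Ccr2, the receptor through which CCL2 draws monocytes, was 5.28 to 6.25 on HFD, 3.66 to 5.64 on HFD + inulin and 4.46 to 5.7 on HFD + inul PB. The groups overlapped, and the differences of -0.84 ± 0.31 and -0.75 ± 0.31 were not called (adjusted P = 1 for each). Cxcl12 (14.27 to 15.14) and Cx3cl1 (5.9 to 7.3) were not called on any diet.

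Cxcl1, a neutrophil attractant made by hepatocytes and other cells, was 8.96 to 11.10 on HFD and 8.19 to 9.81 on LFD. The groups overlapped, with a difference of -1.08 ± 0.34 (P = 0.00401, exact permutation P = 0.0216, adjusted P = 0.437). On slide 1 alone it was 0.03, and the call was lost without HFD replicate 6 (-0.92) or LFD replicate 4 (-0.88).

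The mean of the fiber diets was below LFD for 6 liver members, against 0.535% of all probes lower and 0.774% either way. The median over the 52 members was -0.30, and over all probes 0.01. They were the ligands Ccl2, Ccl5, Ccl8 and Cxcl9 and the receptors Ccr6 and Cxcr6. None passed after adjustment in limma (0.0593% of all probes did), and 15 members had an unadjusted P under 0.05, 14 of them lower, as had 7.22% of all probes in either direction. In the model of both tissues described below, Ccl8 and Ccr6 differed in liver from HFD by 1.51 and 0.76 on LFD. They differed from HFD by -0.22 and -0.36 on HFD + inulin and by 0.14 and 0.1 on HFD + inul PB. Cxcl9, Ccl2, Ccl5 and Cxcr6 differed from HFD by 0.28, 0.04, 0.16 and 0.28 on LFD. On HFD + inulin these differed by -0.9, -0.66, -0.49 and -0.37, and on HFD + inul PB by -1.12, -0.87, -0.64 and -0.37.

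Cxcr6 had the smallest P of the liver members called against LFD. It was 7.14 to 7.86 on HFD + inulin, 7.02 to 7.75 on HFD + inul PB and 7.48 to 8.51 on LFD, so that the groups overlapped through 1 low LFD array. The difference was -0.65 ± 0.15 (P = 0.000264, exact permutation P = 0.000431, adjusted P = 0.136), and it was -0.57 and not called without LFD replicate 1. The call was also lost with normexp (-0.46), without background correction and with the authors' values (-0.50 in both). With all probes of the gene averaged the difference was -0.57 and not called. A second Cxcr6 probe, above background on all 24 liver arrays, differed by -0.48 and was not called. On HFD the first probe read 7.56 to 8.4 (mean 7.86).

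Cxcl9 was 7.83 to 9.45, 8.13 to 8.98 and 8.79 to 11.28 on HFD + inulin, HFD + inul PB and LFD, a difference of -1.29 ± 0.38 (P = 0.0028, exact permutation P = 0.000916). Ccl2, the chief monocyte attractant, differed by -0.80 ± 0.28 (P = 0.00891, exact permutation P = 0.00566) and Ccl5 by -0.72 ± 0.24 (P = 0.00662, exact permutation P = 0.00242). These 3 lay close to the threshold: Cxcl9 was not called without LFD replicate 1 (-1.12) or replicate 2 (-1.01), and Ccl2 and Ccl5 were lost on leaving out each of 13 and 9 arrays in turn, with LFD replicate 1 giving -0.66 and LFD replicate 2 -0.55. Ccl8 (-1.61 ± 0.57, P = 0.00994, exact permutation P = 0.00743) and Ccr6 (-0.92 ± 0.28, P = 0.00343, exact permutation P = 0.0131) were dim. They were above background on 3 and 5 of 6 LFD arrays and on 1 and 2 of 12 fiber arrays. With normexp they differed by -0.38 and -0.24, and neither was called. The Ccl8 call was lost on leaving out each of 18 arrays in turn. It was also lost with 75th percentile scaling and with replicate number as a block. The Ccr6 call was lost without LFD replicate 3 (-0.76) or LFD replicate 4 (-0.78).

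Means of several liver marker lists on the fiber diets also lay below those on LFD. The mean of 9 T cell genes was 6.88 to 7.59 on HFD + inulin, 6.69 to 7.70 on HFD + inul PB and 7.23 to 7.88 on LFD, with a difference of -0.42 (exact permutation P = 0.0143). The mean of 5 dendritic cell genes differed by -0.46 (exact permutation P = 0.0021, adjusted over 60 tests 0.126), of 6 plasma cell genes by -0.58 (exact permutation P = 0.0169) and of 5 endothelial and lymphatic genes by -0.27 (exact permutation P = 0.0226). No list passed after adjustment. Their part in the chemokine differences was not tested. Ltb was lower on the fiber diets than on LFD by 0.75 ± 0.20 (adjusted P = 0.244).

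**Figure D5:**
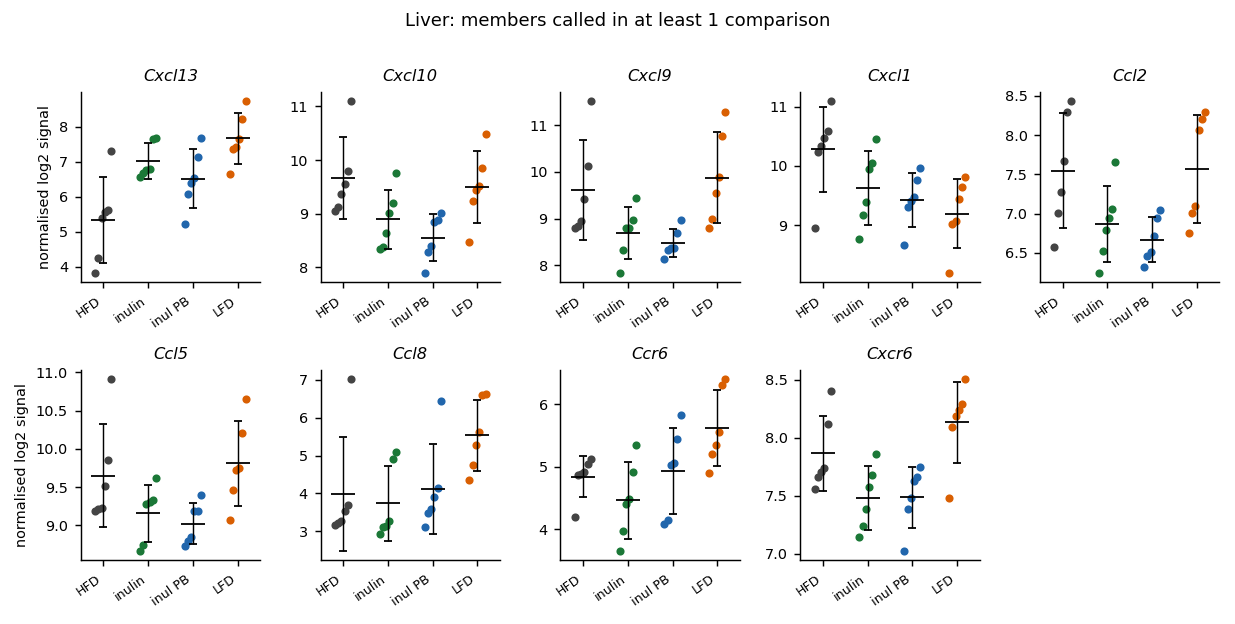
Normalised log2 signal (y axis) of the 9 members called in at least 1 liver comparison, by diet (x axis). Points are arrays, the bar is the mean and the whiskers are 1 SD. Cxcl13 is lowest on HFD (mean 5.34) and highest on LFD (7.67), and Cxcl9, Ccl2, Ccl5 and Cxcr6 are lower on the fiber diets than on LFD.

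The response to a diet was then compared between the tissues, with all 46 arrays in 1 model. For HFD + inul PB, Ccl9 differed after adjustment, the only member to do so (2.01% of all probes). It was lower by 0.76 in cecum, while in liver, where HFD arrays were 11.62 to 12.23 and HFD + inul PB arrays 11.90 to 12.53, the difference was 0.22. The responses differed by -0.98 ± 0.21 (adjusted P = 0.0102), and by -1.06 to -0.89 whichever array was left out. For HFD + inulin (0.277% of all probes) and LFD (0.0359%) no member passed, with 6 and 12 members at an unadjusted P under 0.05, beside 5475 and 3899 of the 55681 probes, Cxcl13 on LFD the nearest (-0.42 in cecum, 2.34 in liver, adjusted P = 0.0561).

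Levels on HFD differed between cecum and liver for 33 members, 63.5%, against 39.2% of all probes (fold over 1.5 and adjusted P under 0.05), 24 higher in cecum and 9 in liver. The tissues lay on separate slides, so slide and tissue cannot be told apart. Among ligands higher in cecum, Cx3cl1 was 33.9-fold and Cxcl14 14.9-fold higher. The monocyte attractant Ccl8 had a mean of 10.45 in cecum and 4.02 in liver, and Ccl28 of 9.43 and 4.6, with liver above background on 1 of 6 HFD arrays for each, so that no fold is given. The eosinophil attractant Ccl11 was at least 37.9-fold and Ccr6 at least 15-fold higher, both not above background on any HFD liver array. In liver Cxcl12 was 14.6-fold, Ccl27a 6.2-fold and Ccl9 2.83-fold higher. Cxcl1 had a mean of 10.48 in liver and 3.79 in cecum, where it was above background on 1 of 6 HFD arrays, and Ccl24 of 7.48 and 4.74, with 3 of 6.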

How the data were processed

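Total RNA of cecum and liver was labelled with Cy3 and hybridised to 1-colour Agilent arrays. The authors deposited the scanner output of each of the 46 arrays (Feature Extraction 10.7.3.1), where the processed signal is a background-subtracted intensity on a linear scale, and a table of log2 values that their methods describe as normalised by cyclic loess. From the scanner output, control and outlier spots were removed, log2 of the processed signal was normalised per tissue by cyclic loess (span 0.7) and spots of a probe were averaged. limma 3.58.1 in R 4.3.3 (with jsonlite 2.0.0) fitted all diets of a tissue together, and adjusted P are Benjamini-Hochberg values over all 55681 probes, of which 27509 were named through RefSeq (GRCm38.p6). The joint model of both tissues was normalised over all 46 arrays. Two-sided exact permutation tests were used for list means and for single members. Their smallest P is 0.00216 for 6 arrays against 6 or 5, since with unequal sizes a single split is as extreme. For the fiber diets against LFD they pooled the arrays of both fiber diets, unlike the limma contrast of diet means, so smaller P are possible there. Correlations had permutation tests with 1e+05 resamples. P-values measure the spread between arrays of separate samples, and the labels do not tie a cecum to a liver array, so tissues were treated as unpaired. No 2 arrays were identical (highest correlation 0.989). The number of arrays limits the precision.

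Members and lists were chosen with earlier results of these data known. Genes named in the text were those called in at least 1 comparison, with their ligands or receptors and the gut homing pairs. Cx3cr1, Blk and the genes of the small intestine were named after their values were seen. Diet groups came from the sample labels, and diet composition from the study's methods. Fits were tested on simulated data. Alternatives were scaling to the 75th percentile, quantile normalisation, normexp background correction (offset 50) or none, the authors' processed values, outlier spots kept, a filter on dim probes, slide, replicate number, or slide with row and column as blocks, only the diets compared in the fit, all probes of a gene averaged, and each array left out in turn. The 2 alternatives without arrays that carried small-intestine genes were added after seeing the data, with the limit of 9 on Sis set then. Some genes of the lists are not reported here.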

Additional observations from a re-analysis of the deposited data

Results flagged for a closer look

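Of 124 diet groups of the named members, 16 (12.9%) held 1 array that lay far from the rest of its group, where chance gives about 1 in 20. In cecum, HFD replicate 5 was high for Ccl25 (16.1, others up to 10.72), Ccr9 (8.29, others up to 7.19) and Cxcr6 (10.14, others up to 9.68). HFD + inulin replicate 5 was high for Cxcl13 (11.13, others up to 9.73), Cxcl14 (12.86, others up to 11.49), Cxcr3 (8.89, others up to 7.89) and Ccr10 (7.77, others up to 6.74). Without HFD + inulin replicate 5, 9 members in place of 5 were called on HFD + inulin against HFD. HFD + inul PB replicate 5 was high for Ccl25 (12.3, others up to 10.91) and HFD + inulin replicate 6 for Ccl5 (13.44, others up to 12.45). HFD replicate 2 was low for Ccr6 (8.21, others from 9.1) and HFD replicate 4 for Cxcl10 (8.65, others from 9.69). LFD replicate 3 was high for Ccl20 (3.23, others up to 2.94), a probe not above background there.

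In liver, HFD replicate 3 was high for Ccl8 (7.03, others up to 3.69) and Cxcl10 (11.11, others up to 9.8), HFD + inul PB replicate 4 was high for Ccl8 (6.44, others up to 4.14), and HFD replicate 6 was low for Ccr6 (4.2, others from 4.87).

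The response of Ccl9 to HFD + inul PB differed between cecum and liver by -0.98 in the test of the difference itself. The causes of these values were not tested.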

How the results depend on the processing

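Of 38 single differences followed through the alternatives, 9 kept their call in every one and none changed sign. The counts of members called, and of those passing after adjustment, moved as follows, and the causes were not tested.

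In cecum the count on HFD + inulin (5) was 3 with normexp, without background correction and with the authors' values, 2 with only the diets compared, 1 with slide, row and column as blocks and 2 without the arrays high in Sis. After adjustment (2) it was 0 with 75th percentile scaling, 1 with quantile normalisation, 1 without background correction, 1 with the authors' values, 4 with slide as a block, 0 with slide, row and column and 0 with only the diets compared. On HFD + inul PB (11 and 10) it was 5 and 2 without the arrays high in Sis. On LFD (5) it was 3 with normexp and 3 without those arrays. Between the fiber diets (4) it was 1 with only the diets compared and 1 without those arrays. Fiber diets against LFD (0) gave 1 with 75th percentile scaling, normexp, no background correction, the authors' values or slide as a block. After adjustment (1) it was 2 with the filter on dim probes and 0 with 75th percentile scaling, quantile normalisation, no background correction, the authors' values, outlier spots kept, slide as a block or without the arrays high in Sis.

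In liver HFD + inulin (1) gave 2 with slide, row and column. HFD + inul PB (1) gave 2 with 75th percentile scaling, normexp, no background correction, the authors' values, slide as a block or only the diets compared. LFD gave 1 in place of 2 with only the diets compared, and 1 in place of 0 after adjustment without background correction, with the authors' values or with the filter on dim probes. The fiber diets differed in 1 member with only the diets compared, and the count against LFD (6) was 2 with normexp. Tissue differences in response were 3 on HFD + inul PB with normexp or the authors' values, 2 and 1 on LFD with the same, and 1 on HFD + inulin and 2 on LFD with the filter.

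Leaving out 1 array gave, in cecum, 2 to 9 members on HFD + inulin (0 to 6 after adjustment), 9 to 14 on HFD + inul PB (5 to 12), 2 to 6 on LFD (0 to 0), 3 to 7 between the fiber diets (0 to 1) and 0 to 1 for fiber against LFD (0 to 2). The fewest on LFD came without LFD replicate 4 and the most between fibers without HFD + inulin replicate 3. In liver it gave 1 to 2 on HFD + inulin, 0 to 2 on HFD + inul PB (0 without replicate 4 of that diet), 1 to 4 on LFD (4 without HFD replicate 3; 0 to 1 after adjustment), 0 between fibers and 2 to 7 for fiber against LFD (2 without LFD replicate 1, 2 or 4). Tissue differences in response were 0 to 1, 1 to 2 and 0 to 1 on HFD + inulin, HFD + inul PB and LFD, and 31 to 34 members differed in level between tissues.

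The replicate numbers were not taken to pair the arrays, since no label ties them to a shared animal or batch and not every same-numbered pair correlated above 0.1: deviations of same-numbered arrays correlated at -0.16 to 0.25 in cecum (median 0.06) and 0 to 0.28 in liver (median 0.1, other pairs -0.03). Yet 10 of 22 and 18 of 24 arrays correlated best with an array of their own number, a hint from the data and not from the design. Arrays that shared a slide correlated at a median of 0.05 in cecum and 0.09 in liver, against -0.03 and -0.05 across slides. Same-numbered cecum arrays mostly shared a slide, and the part of the slide in this hint was not tested. With the replicate number as a block, liver counts were 3 on HFD + inul PB and 2 on HFD + inulin, and the cecum count for fiber against LFD after adjustment was 0.

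Probes near background, as for Cxcr5, Cxcr4 and liver Cxcl13, Ccl8 and Ccr6, have differences whose size depends on the background correction.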
